A study of Mus musculus with 4 samples.

Results

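A set of 3365 stretches of mouse chromatin, each 500 bp long and lying away from gene ends, was open in the γδ T cells labelled Rorgt gdT in the cecum and much less so in its cytotoxic γδ T cells. They were chosen from the cecum library, which the labels name gut and which is called gut below, by measured values. The genome (mm10) was cut into 4737669 tiles on chromosomes 1 to 19 that lay more than 1 kb from either end of every protein-coding gene. Of these distal tiles, 18150 held 15 or more ATAC fragments of cells that the authors labelled Rorgt gdT. Of those, 3365 (18.5%) had at least 3 times the value of the cells labelled Cytotoxic gdT. Values are fragments per 1000000 fragments of a label (FPM), and 0.5 FPM was added to both sides of a ratio. A ratio of a single tile printed with an interval is taken from the counts and label totals with nothing added, is called the count log2, and lies further from 0 at low counts. The other 14785 tiles with the minimum missed the fold. All 18150 tiles serve as the background below. The cecum values of both γδ labels made the choice and are therefore given as a description. The tumor values and those of the other T cell labels did not enter it.

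The study sorted T cells from mouse colorectal tumors and, next to them, from cecum without tumor, 4 weeks after cancer organoids had been placed in the cecum. These organoids derived from mouse intestinal stem cells and carry engineered cancer mutations, so the tumor is a graft and not a tumor that arose in the host. Nuclei were read by single-cell multiome, which gives nuclear RNA and open chromatin from the same nucleus, and 1 ATAC library per tissue is used here. The host strain, the age of the mice and the number of mice per library are not given in the sources used here. The authors clustered the cells on RNA and carried the 17 labels over to the ATAC data. The cecum library held 66466111 fragments and 7155 labelled cells, and the tumor library held 96747563 fragments and 8466 labelled cells. Rorgt gdT comprised 438 cecum and 273 tumor cells with 2162164 and 2125652 fragments, and Cytotoxic gdT comprised 523 and 595 cells with 3008350 and 4192345 fragments. There were 84 barcodes labelled in both libraries, 0 of them Rorgt gdT in both. Each tissue has 1 library, so differences are described without a test. Intervals are exact 95% intervals and cover counting error only, as the cells of a label in 1 library were pooled. Fragments carry no molecular identifiers and were treated as separate counts.

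IL-17-producing γδ T cells, the kind this label names, are innate-like lymphocytes of barrier tissues that leave the thymus ready to secrete IL-17. They share the receptors for IL-23 and IL-1 with Th17 cells, the CD4+ cells that acquire the same program after antigen encounter. Distal open chromatin holds most enhancers, the elements by which transcription factors set cell type-specific expression. Cytotoxic γδ T cells of the gut epithelium run a different program, built on T-bet, granzymes and interferon-γ.

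A sequence could be read only where a RefSeq start-site window (250 bases before to 50 after a gene's start, GRCm38.p6) lay at least 150 bases inside a tile, which held for 83 windows in 78 of the 3365 tiles. They are starts inside protein-coding genes or starts of noncoding genes, since the ends of protein-coding genes were kept away by the rule. The 7 windows below come from tiles open in Rorgt gdT cells in both libraries. They range from an internal start of Il1r1, the IL-1 receptor gene, to noncoding starts shared with other T cells. The Il1r1 and Cnr2 windows were picked by gene and by rank. The others were picked among windows that hold AGGTCA or TGANTCA (motifs given below), so their matches are not typical of the 83 windows. Letters are in lower case and matches to 4 searched motifs are in capitals. The motifs were AGGTCA (core of the sites bound by nuclear receptors), TGANTCA (AP-1), TCACACC (T-box) and GGGAAA (a core shared by NFAT and NF-κB sites), each on either strand.
Il1r1: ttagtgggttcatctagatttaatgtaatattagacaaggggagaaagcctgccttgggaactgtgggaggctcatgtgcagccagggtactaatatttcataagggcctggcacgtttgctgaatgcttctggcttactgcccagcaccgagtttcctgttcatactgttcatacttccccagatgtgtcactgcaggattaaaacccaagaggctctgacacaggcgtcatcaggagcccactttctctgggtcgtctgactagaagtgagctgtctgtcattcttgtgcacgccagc
Cnr2: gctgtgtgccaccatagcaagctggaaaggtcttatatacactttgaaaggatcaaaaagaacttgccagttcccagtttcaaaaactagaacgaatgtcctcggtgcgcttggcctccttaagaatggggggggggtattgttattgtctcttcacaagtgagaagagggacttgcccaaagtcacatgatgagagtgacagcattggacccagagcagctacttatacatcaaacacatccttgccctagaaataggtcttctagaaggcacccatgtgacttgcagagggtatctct
Gm40007: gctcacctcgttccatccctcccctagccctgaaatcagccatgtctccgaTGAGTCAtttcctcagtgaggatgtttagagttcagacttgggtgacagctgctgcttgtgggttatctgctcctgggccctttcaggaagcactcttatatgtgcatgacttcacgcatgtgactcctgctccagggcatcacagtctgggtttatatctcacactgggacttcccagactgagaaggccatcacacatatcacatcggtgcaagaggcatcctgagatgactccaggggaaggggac
Gm52148: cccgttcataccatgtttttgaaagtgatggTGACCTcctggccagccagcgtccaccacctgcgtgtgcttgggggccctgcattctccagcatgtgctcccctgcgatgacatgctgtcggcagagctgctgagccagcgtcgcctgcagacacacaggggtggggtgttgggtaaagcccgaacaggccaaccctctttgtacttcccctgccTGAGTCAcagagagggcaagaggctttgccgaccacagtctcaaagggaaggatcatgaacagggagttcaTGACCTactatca
Gm9961: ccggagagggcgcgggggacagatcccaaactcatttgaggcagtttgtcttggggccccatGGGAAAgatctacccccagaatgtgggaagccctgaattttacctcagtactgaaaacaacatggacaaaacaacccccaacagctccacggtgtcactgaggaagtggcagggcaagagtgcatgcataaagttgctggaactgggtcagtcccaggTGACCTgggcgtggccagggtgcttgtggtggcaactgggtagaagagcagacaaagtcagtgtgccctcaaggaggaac
Gm41386: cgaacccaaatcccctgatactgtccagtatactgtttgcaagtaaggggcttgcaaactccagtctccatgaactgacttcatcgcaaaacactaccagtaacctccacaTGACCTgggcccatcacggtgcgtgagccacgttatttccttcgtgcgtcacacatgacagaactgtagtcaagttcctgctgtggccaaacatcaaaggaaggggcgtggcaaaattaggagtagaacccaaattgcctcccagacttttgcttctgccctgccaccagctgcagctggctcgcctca
Gm34483: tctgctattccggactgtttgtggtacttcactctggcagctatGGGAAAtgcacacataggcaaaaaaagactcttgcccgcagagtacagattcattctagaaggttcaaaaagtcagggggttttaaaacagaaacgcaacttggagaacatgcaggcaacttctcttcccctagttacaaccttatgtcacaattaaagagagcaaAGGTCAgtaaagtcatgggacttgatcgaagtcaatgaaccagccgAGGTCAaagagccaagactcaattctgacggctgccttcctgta

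The Il1r1 window (chr1:40224830-40225129, plus strand) belongs to a tile with 26 Rorgt gdT and 0 Cytotoxic gdT fragments in the gut and 21 and 2 in the tumor. The Cnr2 window (chr4:135911430-135911729, plus strand), at the gene of the cannabinoid receptor of immune cells, had 58 and 1 in the gut and 48 and 0 in the tumor. Neither window held a match. The Cnr2 tile also had 22 fragments in tumor Th17, 17 in IL10+ Treg and 30 in IL10- Treg cells. Fragment counts of single tiles, here and below, are not scaled to the label totals. In the tumor these were 2125652 in Rorgt gdT, 2339396 in Th17, 2727884 in IL10+ Treg and 5805456 in IL10- Treg cells. An equal count is therefore a lower FPM in tumor IL10- Treg than in tumor Rorgt gdT cells. The window of Gm40007 (chr2:172276164-172276463, minus strand) held TGANTCA at base 52, and its tile had 35 and 0 fragments in the gut and 41 and 0 in the tumor. It also had 5 fragments in tumor Th17, 35 in IL10+ Treg and 38 in IL10- Treg cells. The window of Gm52148 (chr14:31160485-31160784, plus strand) held AGGTCA on its minus strand at bases 32 and 288 and TGANTCA at base 217, with 38 and 1 fragments in the gut and 50 and 3 in the tumor. That tile was also read in tumor Th17 (58 fragments) and IL10- Treg cells (159 fragments), so it was shared widely. By contrast, the tile of Gm9961 (chr16:11901114-11901413, plus strand), with AGGTCA on the minus strand at base 221 and GGGAAA at base 63, had 19 and 0 fragments in the gut, 25 and 0 in the tumor, and 8 in tumor Th17, 1 in IL10+ Treg and 0 in IL10- Treg cells. The window of Gm41386 (chr15:93712706-93713005, minus strand) had AGGTCA on its minus strand at base 112, with 61 and 4 fragments in the gut and 29 and 0 in the tumor. Its tile also had 7 fragments in tumor Th17, 22 in IL10+ Treg and 70 in IL10- Treg cells. The window of Gm34483 (chr2:102942074-102942373, plus strand), whose nearest protein-coding gene is Cd44, had AGGTCA at bases 211 and 257 and GGGAAA at base 45, with 21 and 1 fragments in the gut and 21 and 2 in the tumor. Its tile also had 6 fragments in tumor Th17, 10 in IL10+ Treg and 35 in IL10- Treg cells.

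AGGTCA occurred in 21 of the 83 windows (25.3%), in 12.3% of the 1353 windows in the other distal tiles with the minimum and in 16.3% of all 31365 windows of the table. TGANTCA occurred in 13.3%, 6.58% and 7.85%, TCACACC in 6.02%, 3.03% and 4.00%, and GGGAAA in 31.3%, 25.1% and 25.2% of the same 3 sets. The windows cover 78 tiles only, and a match describes letters, not a bound site.

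The labels were checked against the accessibility of marker genes (gene span with 5 kb on either side). Over the 9 markers of the Rorgt gdT label, which include Il17a, Il23r, Sox13 and Blk, the summed value was 1022 FPM in gut Rorgt gdT, 253 in Cytotoxic gdT and 674 in Th17 cells, and 1060, 241 and 574 FPM in the tumor. Of the 9 genes, 8 were higher in Rorgt gdT than in Cytotoxic gdT cells in each library. Trdc, the constant gene of the TCR δ chain, was read in both γδ labels (48.6 and 77.8 FPM in the gut, 40.5 and 68.0 FPM in the tumor) and hardly in Th17 cells (0 and 0.855 FPM). The 8 cytotoxic markers summed to 203 FPM in gut Rorgt gdT and 571 FPM in Cytotoxic gdT cells, and to 211 and 547 FPM in the tumor. Epithelial markers summed to 106 FPM in Rorgt gdT and 207 FPM in Cytotoxic gdT cells in the gut and 123 and 194 FPM in the tumor. The myeloid list gave 155 and 245 FPM in the gut and 167 and 234 FPM in the tumor, and the B cell list gave 146 and 157, then 170 and 166 FPM. The 3 Treg markers summed to 338 and 236 FPM in the gut and 342 and 236 FPM in the tumor, with 2 of 3 higher in gut and 3 of 3 in tumor Rorgt gdT cells. Foxp3, the defining factor of Treg cells, had 26.8 and 33.6 FPM in the gut and 30.1 and 27.4 FPM in the tumor. The 2 CD8 markers summed to 13.9 and 98.7, then 15.1 and 88.7 FPM. The epithelial sum turned on Cdh1, with 47.6 and 135 FPM in the gut and 46.6 and 132 FPM in the tumor. Without it, a comparison chosen after seeing the data, the sums were 58.7 and 72.5 FPM in the gut and 76.2 and 62.3 FPM in the tumor, so that the order in the tumor turned. Of the 10 epithelial markers, 4 in the gut and 7 in the tumor were higher in Rorgt gdT cells. The part of these markers in the results was not tested.

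The tiles had 15 to 187 Rorgt gdT fragments in the gut (median 24) against 0 to 82 in Cytotoxic gdT cells (median 4). In the tumor they had 0 to 143 Rorgt gdT fragments (median 21) against 0 to 120 (median 5). There were 612 tiles without a Cytotoxic gdT fragment in the gut, 524 in the tumor and 340 in both, while 1 tile had none of tumor Rorgt gdT. The rule favours a count of 0 in gut Cytotoxic gdT cells, and no background is given for these counts. A tile 11.6 kb outside Furin (chr7:80417001-80417500), the gene of a proprotein convertase, led with 187 and 82 fragments in the gut and had 124 and 103 in the tumor. Just inside the fold were tiles in Arhgef10 and Nfil3, with 41 and 18 fragments each, and in Brwd1, with 67 and 30. Just outside were tiles near Icos, Kit and Bhlhe40, with 28 and 12 each.

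Positions differed from the background in a few respects. Of the tiles, 1927 (57.3%) lay within the span of a protein-coding gene, compared with 62.1% of all distal tiles with the minimum. Outside genes, the median distance to the nearest one was 26.0 kb, against 16.4 kb. More than 50 kb from any protein-coding gene lay 462 tiles (13.7%), against 8.49%. The tiles formed 2555 runs of adjoining tiles, of which 1834 were single tiles and 721 had 2 or more. All distal tiles with the minimum, a set with more tiles, formed 11454 runs, 6518 of them single tiles. The longest run of the chosen tiles measured 2.5 kb (chr10:95779501-95782000), nearest to Eea1, an endosomal tethering factor. The share of distal tiles that passed the fold ranged from 13.2% on chromosome 19 to 24.3% on chromosome 16. Within 1 kb of gene ends, where the rule did not look, 19654 tiles had the minimum and only 465 (2.37%) passed the fold.

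The tumor cells gave a reading of the same tiles that had not entered the choice. Of the 3365 tiles, 2474 (73.5%) were at least 3 times higher in Rorgt gdT than in Cytotoxic gdT cells of the tumor, compared with 15.7% of all distal tiles with the minimum and 2.59% of those that had missed the fold. Rorgt gdT was the higher of the labels at 3317 tiles (98.6%), against 59.7% in the background, and at 48 it was the lower. A single tile was at least 3 times lower, against 1.21%. The median tumor log2 ratio was 2.38 (quartiles 1.53 and 3.38), against 0.18 over all distal tiles with the minimum and 0.01 over those that missed the fold. From counts alone, with a count of 0 set to 3 counts, the median was 2.68 over the 3348 tiles with more than 3 fragments in either label, and 2590 of all 3365 tiles (77.0%) were at least 3 times higher. Other counts below 3 were kept as read, so these values are not lower bounds. Most tiles thus kept the difference in a second library of other cells.

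**Figure D1:**
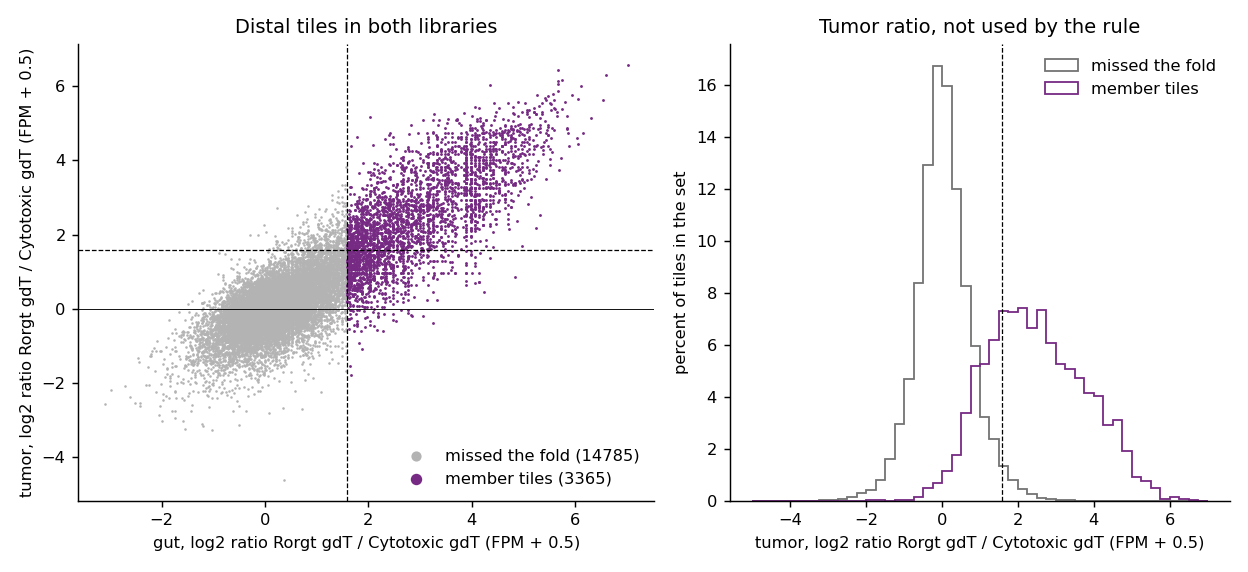
Left, log2 ratio of Rorgt gdT over Cytotoxic gdT (FPM + 0.5) in the gut (x axis) and the tumor (y axis) for the 18150 distal tiles with 15 or more gut Rorgt gdT fragments, with the 3365 chosen tiles (member tiles) coloured and dashed lines at a fold of 3. Right, the distribution of the tumor ratio in percent of tiles. The chosen tiles lie to the right of the fold of 3 by construction, and 73.5% of them also exceed a fold of 3 on the tumor axis, against 15.7% of all tiles shown.

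Some tiles with large differences in both libraries had no Cytotoxic gdT fragment at all. A tile within Dhx37 (chr5:125430501-125431000), a gene of an RNA helicase, had 140 Rorgt gdT fragments and 0 Cytotoxic gdT fragments in the gut and 100 and 0 in the tumor. With the floor of 3 counts per library it was at least 64.9-fold higher in the gut and at least 65.7-fold higher in the tumor. Tumor Th17 cells had 6.41 FPM there against 47.0 FPM in Rorgt gdT cells, and IL10+ and IL10- Treg cells had 0 and 1 fragments. A tile within Plekhg1 (chr10:3832501-3833000) was similar, with 54 and 0 fragments in the gut and 73 and 0 in the tumor, at least 25.04-fold higher in the gut and at least 48.0-fold higher in the tumor, and 5 tumor Th17 fragments. A tile 4.74 kb from Pla2g2d (chr4:138770501-138771000), a secreted phospholipase gene, had 71 and 0, then 52 and 0 fragments, with 26 in tumor Th17 and 0 in both Treg labels.

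Other tiles of this rank were shared with CD4+ cells. The pair of adjoining tiles within Slc22a15 (chr3:101881501-101882000 and chr3:101882001-101882500), a gene of an organic cation transporter family, had 90 and 103 gut Rorgt gdT fragments against 1 and 0, and 69 and 82 in the tumor against 0 and 0. Tumor Th17 cells had 19.2 and 23.5 FPM there and Mucosal Th1 cells no fragment. Neighbouring tiles share fragments whose ends fall in both, so they are not separate readings. A tile within Krt28 (chr11:99370001-99370500), named for a hair follicle keratin, had 164 and 3 fragments in the gut and 134 and 1 in the tumor (tumor count log2 8.05, interval 5.54 to 13.36, and 6.43 with 0.5 FPM added). It reached 51.7 FPM in tumor Th17 and 27.9 in IL10+ Treg cells, but 4.31 in IL10- Treg cells. A tile within BC053393 (chr11:46579001-46579500) had 90 and 1, then 61 and 0 γδ fragments and was higher still in tumor Th17 (41.5 FPM) than in Rorgt gdT cells (28.7 FPM), with 33.0 and 26.4 FPM in IL10+ and IL10- Treg cells.

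The share of all fragments that fell in the 3365 tiles ranked the T cell labels. In the tumor it was 3.52% in Rorgt gdT, 2.55% in Th17, 2.15% in IL10+ Treg, 2.12% in Th2, 2.09% in PD1+ CD4 and 2.02% in IL10- Treg cells. It fell through newly activated CD4 (1.77%), Innate-like T#2 (1.64%), Mucosal Th1 (1.60%) and Tfh-like cells (1.57%) to Cytotoxic CD8 (1.05%), CD8aa (0.739%) and Cytotoxic gdT cells (0.681%). In the gut the ends were 4.14% and 0.572%, and Th17 stood at 2.69%. The other distal tiles with the minimum took a similar share in every label, 16.8% to 21.5% in the gut and 18.02% to 19.9% in the tumor.

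**Figure D2:**
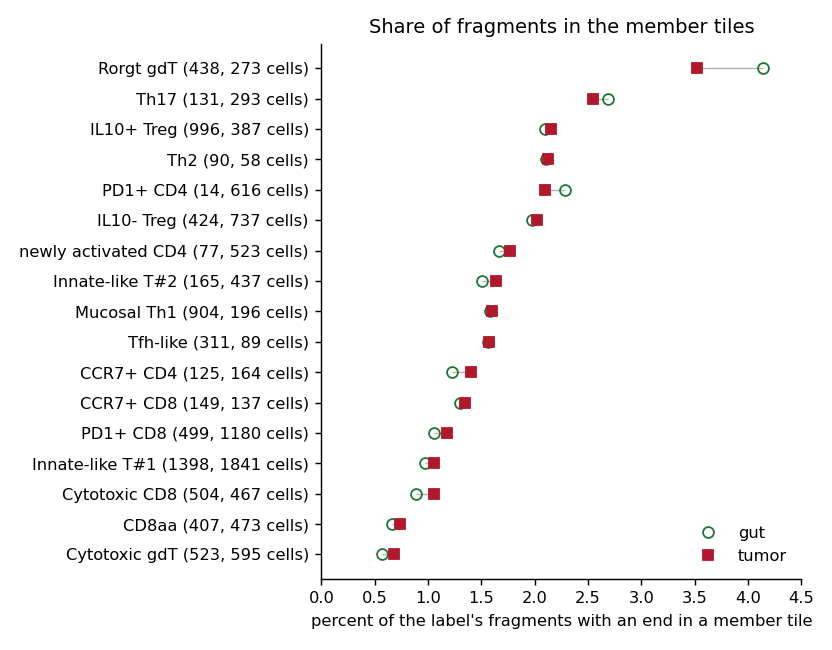
Share of fragments (percent, x axis) in the 3365 tiles for each of the 17 labels, with circles for the gut and squares for the tumor library and the number of cells in each beside the label. Rorgt gdT cells were highest (4.14% and 3.52%), followed by Th17 cells (2.69% and 2.55%), and Cytotoxic gdT cells were lowest (0.572% and 0.681%).

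Single cells were then compared. After each cell with at least 1000 fragments was thinned to 1000, tumor Rorgt gdT cells had 38 fragments in the tiles at the median (5th to 95th percentile 19.3 to 52, 247 cells, 26 left out). The median was 26 for Th17 (262 cells), 22 for IL10+ Treg (348 cells) and 6 for Cytotoxic gdT cells (2 to 13, 526 cells, 69 left out). The 95th percentile of tumor Cytotoxic gdT cells was exceeded by 241 of 247 Rorgt gdT cells (97.6%, all from 1 library), by 94.7% of Th17 and 93.7% of IL10+ Treg cells, and by 22.2% of Innate-like T#1 and 6.09% of CD8aa cells. Without thinning, the 95th percentile of the share of a cell's fragments was exceeded by 244 of the 247 (98.8%), by 98.9% of Th17 and of IL10+ Treg, 99.6% of IL10- Treg, 51.0% of Innate-like T#1 and 8.67% of CD8aa cells, so that the order of Rorgt gdT, Th17 and Treg cells and the level of Innate-like T#1 cells by this measure depended on thinning. In the gut, where these values had chosen the tiles, the thinned median was 44 for Rorgt gdT (368 cells, 70 left out) and 5 for Cytotoxic gdT cells.

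**Figure D3:**
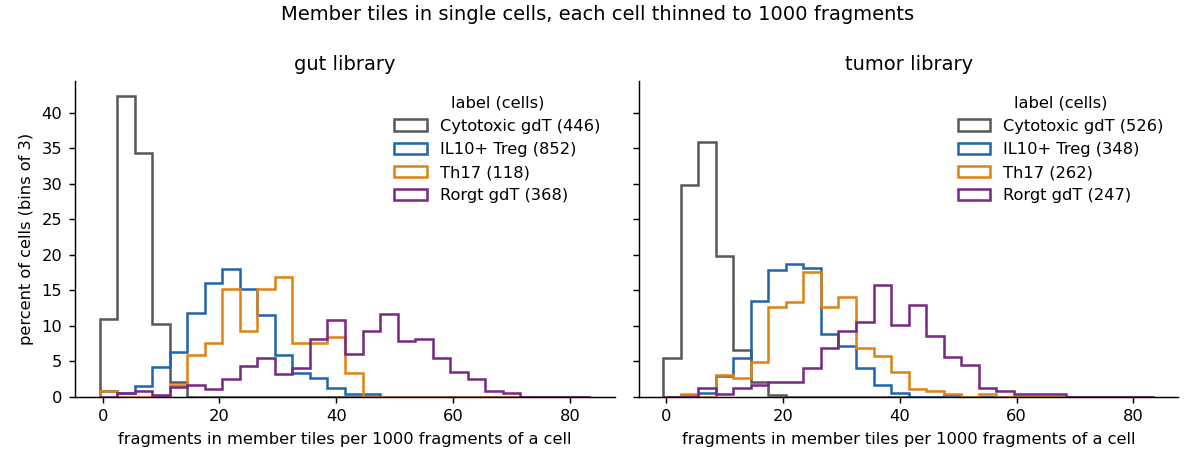
Number of fragments in the 3365 tiles per 1000 fragments of a cell (x axis) against the percent of cells in bins of 3 (y axis), for Rorgt gdT, Th17, IL10+ Treg and Cytotoxic gdT cells in each library. Tumor medians are 38, 26, 22 and 6, and 97.6% of tumor Rorgt gdT cells lie above the 95th percentile of Cytotoxic gdT cells.

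Th17 cells were the closest label by several measures. Rorgt gdT cells had the highest FPM of any label with at least 50 cells at 1424 tiles in the tumor (42.3%; 13.6% in the background). Th2 cells led at 409 (12.8% in the background, from 58 cells), Th17 cells at 320 (4.5% in the background) and Cytotoxic gdT cells at 2 (3.90% in the background). With both γδ labels set aside, Th17 cells led at 858 tiles in the tumor (25.5%; 8.46% in the background), Th2 cells at 562 (16.7%; 14.2%) and IL10+ Treg cells at 369 (10.97%; 7.07%). The median level over the tiles was 9.88 FPM in tumor Rorgt gdT, 6.41 in Th17, 4.77 in IL10+ Treg, 4.56 in Th2, 4.13 in IL10- Treg and 1.19 in Cytotoxic gdT cells. Over all distal tiles with the minimum these labels lay closer together, at 11.3 FPM in Rorgt gdT, 10.3 in Th17 and 9.78 in Cytotoxic gdT cells.

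Neither label of the pair Th17 and Mucosal Th1 had entered the choice. Th17 cells were at least 2 times higher than Mucosal Th1 cells at 1331 tiles in the gut (39.6%; 11.2% in the background) and lower at 245 (7.28%; 9.64% in the background). In the tumor they were higher at 1378 (41.0%; 12.8% in the background) and lower at 162 (4.81%; 6.84% in the background). The median log2 ratio was 0.69 in the gut and 0.77 in the tumor, against 0.00 and 0.01 over the background. From counts with 0 set to 3, the medians were 0.79 over 2918 tiles and 0.73 over 2954, those with more than 3 fragments in either label. The floor of 3 counts is 3.44 FPM in gut Th17 but 0.569 in Mucosal Th1 cells, and 1.28 and 2.32 FPM in the tumor. A 0 is thus set higher in the label with fewer fragments, so these medians are no check on the others. The 14785 tiles that missed the fold had a median of -0.07 in both libraries. The tiles with the highest ratio in both included those in Slc22a15 and Krt28 and one within Disp1 (chr1:183104501-183105000), with 17 Th17 and 1 Mucosal Th1 fragments in the gut and 34 and 0 in the tumor.

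IL10+ and IL10- Treg cells differed at some of the tiles, on both sides. IL10+ Treg cells were at least 2 times higher at 711 tiles in the gut (21.1%; 8.55% in the background) and lower at 406 (12.1%; 4.84% in the background). In the tumor they were higher at 536 (15.9%; 6.03% in the background) and lower at 383 (11.4%; 5.03% in the background). The median log2 ratio was 0.17 and 0.08, near the 0.10 and 0.07 of the background, and 0.18 and 0.13 from counts with 0 set to 3. Both Treg labels were lower at the tiles than in the background (medians of 4.38 and 3.67 against 10.2 and 9.66 FPM in the gut, and of 4.77 and 4.13 against 9.90 and 9.65 FPM in the tumor). Counting error is larger at such levels, and its part in the wider spread was not tested.

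The tiles given next were picked for a high IL10+ over IL10- Treg ratio in both libraries, so they show that side only. The only distal tile with the minimum near Ccl20 (chr1:83138001-83138500, 18.8 kb away), the gene of the ligand of CCR6, had 175 IL10+ and 4 IL10- Treg fragments in the gut and 72 and 8 in the tumor, with count log2 ratios of 4.52 (interval 3.14 to 6.41) and 4.26 (3.20 to 5.53). It had 28 Rorgt gdT and 0 Cytotoxic gdT fragments in the gut and 15 and 0 in the tumor. In the tumor it stood at 29.5 FPM in Th17, 26.4 in IL10+ Treg and 7.06 in Rorgt gdT cells, and the Th17 over Mucosal Th1 count log2 ratio was 5.26 (2.73 to 10.58). Adjoining tiles 23.8 and 23.3 kb from Iyd (chr10:3516001-3516500 and chr10:3516501-3517000) had 97 and 179 IL10+ Treg fragments against 1 and 8 in the gut, and 44 and 78 against 4 and 7 in the tumor. Tiles near Gcnt2 (chr13:40971001-40971500) and 207 kb from Id2 (chr12:25303501-25304000) had 33 and 23 IL10+ Treg fragments in the gut against 0 and 0, and 21 and 21 in the tumor against 2 and 2.

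To describe how far each tile was shared, the gut values were sorted into classes, set after the data were seen. A tile was called restricted where Th17, Treg, other CD4, CD8 and innate-like cells each had, with their fragments pooled, less than 1/3 of the Rorgt gdT value, and broader where other CD4, CD8 or innate-like cells had at least 0.5 of it. There were 509 restricted tiles (15.1%), 598 shared with Th17 only (17.8%), 365 with Th17 and Treg (10.8%), 147 with Treg only (4.37%), 1221 broader ones (36.3%) and 525 between these classes (15.6%). These shares have no background beside them, as the classes were formed for the chosen tiles only. The gut Rorgt gdT value they use had been chosen to be high, so they are a description. The tumor library was not used to form the classes. There the median tumor log2 ratio of Rorgt gdT over Cytotoxic gdT was 3.33 in restricted tiles, 2.82 in Th17 only, 2.74 in Th17 and Treg, 2.44 in Treg only and 1.73 in broader tiles. With 0 set to 3 counts it was 3.56, 3.23, 3.02, 2.75 and 1.91.

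Restricted tiles had a mean of 9.55 FPM in tumor Rorgt gdT cells and 2.43 in Th17, 1.33 in Treg, 1.36 in other CD4, 0.760 in CD8, 0.857 in innate-like and 0.70 in Cytotoxic gdT cells. Th17 only tiles had 12.1 FPM in Rorgt gdT and 8.77 in Th17 but 3.65 in Treg cells. Tiles shared with Th17 and Treg had 14.9, 13.3 and 10.5 FPM in the same order. In Treg only tiles the Treg value (10.3 FPM) exceeded that of Th17 cells (6.85 FPM). Of the restricted tiles, 52.3% met the same definition in the tumor, and so did 93.8% of broader, 41.8% of Th17 only, 29.3% of Th17 and Treg and 20.4% of Treg only tiles. Over all 3365 tiles in the tumor, 14.2% were Th17 only, 7.10% Th17 and Treg and 2.94% Treg only, so these shares start from unequal bases and are not ranked. The tumor had more broader tiles (1841, or 54.7%) and fewer restricted ones (376, or 11.2%) than the gut, whose values had chosen the tiles. The pooled groups also differed in make-up. Treg fragments were 5709704 IL10+ and 3000774 IL10- in the gut, but 2727884 and 5805456 in the tumor. Of other CD4, Mucosal Th1 gave 5275674 and PD1+ CD4 89136 fragments in the gut, but 1295529 and 6143256 in the tumor. The part of this make-up in the class shares was not tested. Regardless of class, tumor Rorgt gdT cells were at least 3 times above every other group at 367 of the 3365 tiles (10.9%; 2.04% in the background).

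**Figure D4:**
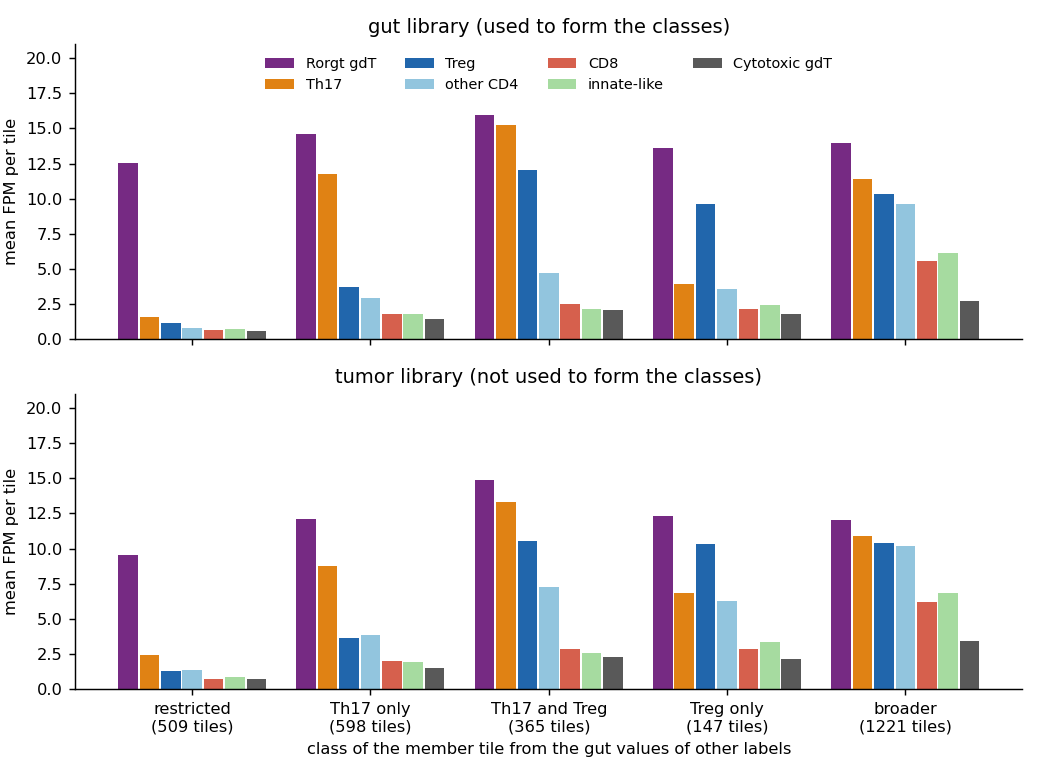
Mean FPM per tile (y axis, 1 bar per group of labels) in the 5 classes of sharing (x axis), in the gut library, which formed the classes, and in the tumor library, which did not. In the tumor, restricted tiles have 9.55 FPM in Rorgt gdT and at most 2.43 FPM in any other group, while broader tiles have 12.1 FPM in Rorgt gdT and 10.2 FPM in other CD4 cells.

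Tiles were then grouped by their nearest protein-coding gene, a measure of position only. Of 107 distal tiles with the minimum near 18 type 17 genes, 65 were among the chosen (60.7%; 18.5% over all genes), spread over 12 genes, and 53 of the 65 were at least 3 times higher in tumor Rorgt gdT cells, against 73.5% of all 3365 tiles. Near the γδ list of 17 genes, 15 of them in the gene table, 37 of 86 (43.0%) were chosen and 31 were so in the tumor. Near 20 cytotoxic genes, 10 of 74 (13.5%) were chosen, and 7 were so in the tumor. The gut values had made the choice and the lists were set with earlier results of these data known. The shares chosen are therefore a description. The median tumor log2 ratios were 3.09, 2.80 and 2.76, and 3.30, 3.85 and 3.11 with 0 set to 3 counts. Of the 65 type 17 tiles, 23 were shared with Th17 only (17.8% of all 3365 tiles), 14 with Th17 and Treg cells (10.8% of all) and 8 (12.3%) were restricted, near the 15.1% of all tiles. Of the 37 γδ tiles, 19 (51.4%) were restricted, 10 of them near Zbtb16 and 4 near Sox13, and 4 were shared with Th17 only.

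Among cytokine receptors, Il1r1 (chr1:40222480-40316201), which encodes the signalling receptor for IL-1, had more of the tiles than any other gene. All 19 distal tiles with the minimum were chosen and all 19 were at least 3 times higher in the tumor (log2 2.76 to 5.34). Summed over them, Rorgt gdT cells had 604 fragments in the gut and 509 in the tumor, and Cytotoxic gdT cells had 11 and 22. The mean level in the tumor was 12.6 FPM in Rorgt gdT, 6.64 in Th17, 3.53 in IL10+ Treg, 0.689 in IL10- Treg and 0.276 in Cytotoxic gdT cells. The tiles were not uniform. The tile at chr1:40225001-40225500 had 44 and 1 γδ fragments in the gut and 43 and 1 in the tumor (tumor count log2 6.41, 3.85 to 11.74, and 4.81 with 0.5 FPM added), with 6.41 FPM in tumor Th17 cells. At chr1:40271001-40271500, Rorgt gdT had 56 and 47 fragments and Cytotoxic gdT 6 and 5, but tumor Th17 cells (29.1 FPM) exceeded Rorgt gdT cells (22.1 FPM).

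Il23r (chr6:67422932-67491855), which encodes the IL-23 receptor, had all 7 of its distal tiles with the minimum among the chosen, and all 7 were at least 3 times higher in the tumor. Its mean tumor level was 13.2 FPM in Rorgt gdT, 10.3 in Th17, 3.67 in IL10+ Treg, 1.25 in IL10- Treg and 0.852 in Cytotoxic gdT cells. The tile with the most fragments (chr6:67483001-67483500) had 84 and 3 in the gut and 56 and 2 in the tumor (tumor count log2 5.79, 3.87 to 8.87, and 4.78 with 0.5 FPM added). Il18r1, a receptor subunit for IL-18, had 3 of 7 tiles chosen. Il7r, the receptor for IL-7, had 4 of 5, with 3 at least 3 times higher in the tumor. The 4 tiles summed to 118 Rorgt gdT and 16 Cytotoxic gdT fragments in the gut, values that had chosen them, and to 47 and 16 in the tumor.

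The cytokine genes themselves had few distal tiles with the minimum. Il17a (chr1:20730905-20734496) had 4 of 5 chosen, all at least 3 times higher in the tumor. The tile 6.005 kb from the gene (chr1:20740501-20741000) had 50 and 10 γδ fragments in the gut and 67 and 6 in the tumor (tumor count log2 4.46, 3.26 to 5.96, and 4.05 with 0.5 FPM added). Over the 4 tiles the tumor mean was 16.7 FPM in Rorgt gdT, 19.02 in Th17, 3.30 in IL10+ Treg, 1.03 in IL10- Treg and 0.596 in Cytotoxic gdT cells, so Th17 cells were at about the same level as Rorgt gdT cells there. Il17f had 2 of 3, both shared with IL10+ Treg cells. The tile at chr1:20759501-20760000 had 114 IL10+ and 2 IL10- Treg fragments in the gut and 45 and 15 in the tumor. The 1 tile of Il22, an epithelial repair cytokine, had 30 and 8 γδ fragments in the gut and 17 and 3 in the tumor (tumor count log2 3.48, 1.69 to 5.90, and 2.81 with 0.5 FPM added).

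Transcription factor genes differed in how far their chosen tiles were shared. Tumor means of a gene, here and below, cover its chosen tiles only, which had been picked for a high gut Rorgt gdT value. Also on the type 17 list, Batf had 2 of 5 tiles chosen, Ahr 1 of 7, Stat3 0 of 3 and Irf4 0 of 3. Maf, a factor of the IL-17 and IL-10 programs, had 6 of 7 tiles chosen, and its tumor mean was near equal in Rorgt gdT (13.7 FPM), Th17 (13.4 FPM), IL10+ Treg (14.0 FPM) and IL10- Treg cells (11.4 FPM). Rora, an orphan nuclear receptor gene, had 11 of 30, with 3 at least 3 times higher in the tumor, and 11.3 FPM in Rorgt gdT, 11.04 in Th17 and 11.4 in IL10- Treg cells.

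Sox13, a factor needed for the IL-17-producing γδ lineage, had few fragments of the other labels given here at its tiles. All 4 of its distal tiles with the minimum (gene at chr1:133382300-133424459) were chosen, restricted and at least 3 times higher in the tumor. They summed to 108 Rorgt gdT and 1 Cytotoxic gdT fragments in the gut and 109 and 2 in the tumor. In the tumor the mean was 12.8 FPM in Rorgt gdT, 0.107 in Th17, 0 in IL10+ Treg and 0.0861 in IL10- Treg cells. The tile at chr1:133404001-133404500 had 51 Rorgt gdT fragments in each library and 0 in Cytotoxic gdT, Th17, Mucosal Th1 and both Treg labels of either library, at least 23.7-fold higher in the gut and at least 33.5-fold higher in the tumor than in Cytotoxic gdT cells. A fragment was seen there in 14.7% of tumor Rorgt gdT cells.

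Zbtb16 (chr9:48651797-48836225), which encodes PLZF, a factor of innate-like T cells, had 12 of 22 tiles chosen, all 12 at least 3 times higher in the tumor and 10 restricted. The tumor mean was 8.35 FPM in Rorgt gdT, 0.356 in Th17, 0.580 in IL10+ Treg, 0.934 in Cytotoxic gdT and 1.01 in the innate-like labels. At chr9:48826501-48827000 there were 39 and 4 γδ fragments in the gut and 40 and 12 in the tumor (tumor count log2 2.72, 1.76 to 3.78, and 2.52 with 0.5 FPM added), with 0 in tumor Th17 cells. Blk, a Src family kinase gene of γδ and B cells, had 9 of 11, with 7 at least 3 times higher in the tumor. Its tile at chr14:63392501-63393000 had 41 and 1, then 39 and 1 fragments and 2.14 FPM in tumor Th17 cells and 0.367 and 0.517 FPM in the Treg labels. At chr14:63383501-63384000 there were 61 and 0, then 60 and 2, with 16.5 and 19.5 FPM in tumor IL10+ and IL10- Treg cells. Cd163l1, the gene of a scavenger receptor of IL-17-producing γδ cells, had 1 of 6 tiles chosen. That tile, within the gene, had 34 and 0 in the gut and 14 and 1 in the tumor, with 0 in tumor Th17 cells. Tcf7, which encodes TCF-1, had 0 of 16 tiles among the chosen, Id3 0 of 3 and Cxcr6 0 of 1. Kit had 2 of 7, with 1 at least 3 times higher in the tumor, and Podnl1 2 of 4, with 0 so.

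**Figure D5:**
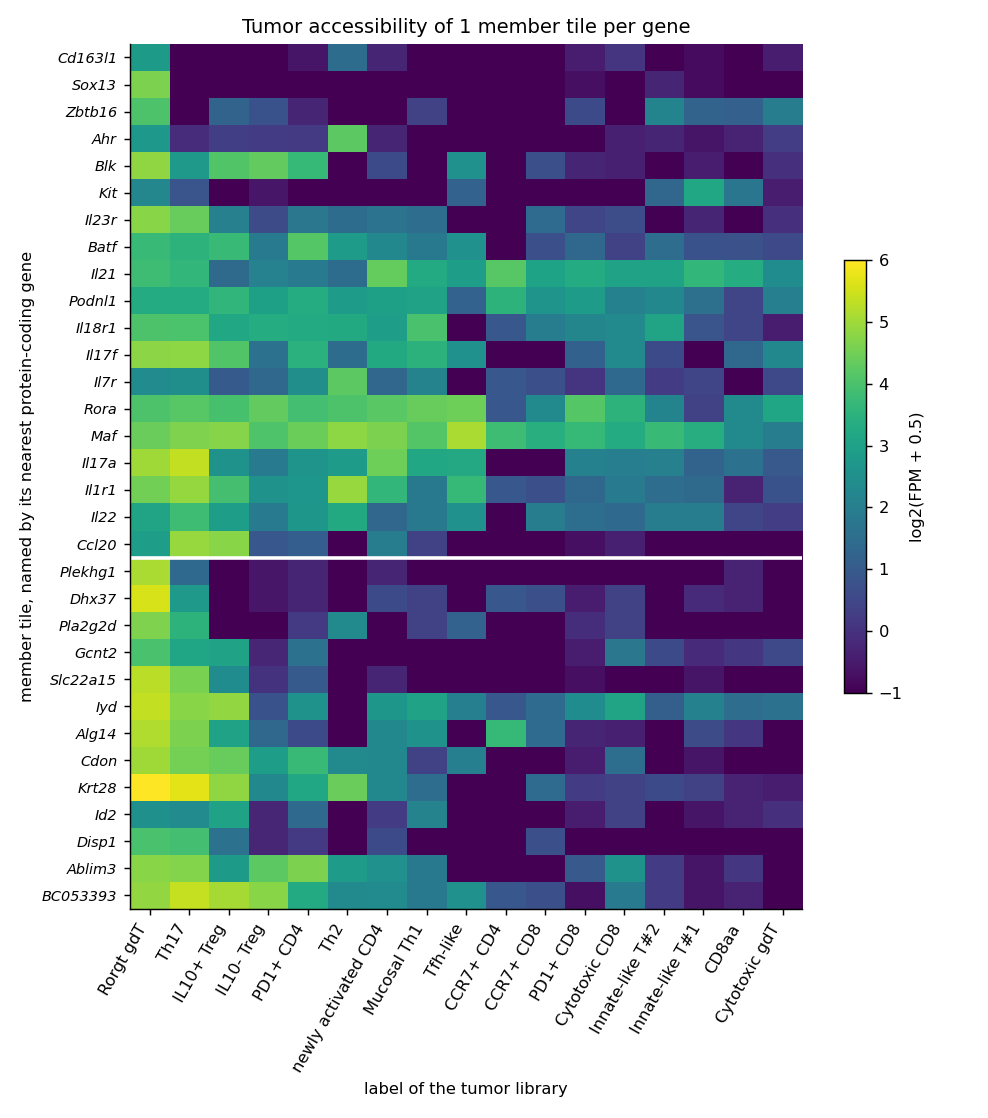
Tumor accessibility, as log2(FPM + 0.5) on the colour scale, of the 17 labels (columns) at 32 tiles (rows), 1 tile per nearest gene. The 19 rows above the white line belong to genes of the type 17 and γδ lists and the 13 below to tiles with the largest differences between the γδ labels or between CD4+ labels. The Sox13 tile is bright in Rorgt gdT cells alone (24.0 FPM), whereas the Il17a, Il23r and Krt28 tiles are bright in Th17 cells as well (40.6, 20.1 and 51.7 FPM).

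Among cytotoxic genes, Klrb1c, which encodes the NK1.1 antigen, had 0 of 14 and Runx3, a factor of cytotoxic lineages, 3 of 22 chosen, with 1 at least 3 times higher in the tumor. The 2 tiles nearest Ifng, the interferon-γ gene, lay 90.6 and 95.1 kb away within the noncoding gene Ifngas1. The tile at chr10:118541001-118541500 had 17 and 1 γδ fragments in the gut and 16 and 0 in the tumor, and 22 in tumor Th17 cells. The tile near Tbx21, which encodes T-bet, had 18 and 7 in the gut but 0 and 4 in the tumor. The 3 tiles near Zeb2 did recur, and they were shared with CD4+ cells. Their tumor mean was 15.8 FPM in Rorgt gdT, 13.3 in Th17, 13.2 in IL10+ Treg and 7.12 in IL10- Treg cells. It was 1.03 FPM in Cytotoxic gdT and 0.869 in CD8 cells. The tile at chr2:44956501-44957000 had 33 and 3, then 39 and 2 (tumor count log2 5.27, 3.32 to 8.36, and 4.27 with 0.5 FPM added), with 16.2 FPM in tumor Th17 cells.

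Genes outside the lists that were nearest to most tiles were Wwox (17 of 25 distal tiles with the minimum, 15 at least 3 times higher in the tumor), Atp2b1 (15 of 23, 12 so), St6gal1 (13 of 13, 13 so) and Ubac2 (13 of 22, 4 so). Wwox, a large gene of an oxidoreductase beside Maf, had a tumor mean of 11.8 FPM in Rorgt gdT, 9.76 in Th17 and 11.6 in IL10+ Treg cells. Atp2b1 encodes a plasma membrane calcium pump and St6gal1 a sialyltransferase. At St6gal1 the tumor mean was 8.61 FPM in Rorgt gdT and 0.679 in Cytotoxic gdT cells. It was 6.09 FPM in IL10+ Treg, 5.29 in IL10- Treg, 5.23 in innate-like and 4.70 in Th17 cells.

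Between tissues, the median log2 ratio of tumor over gut Rorgt gdT was -0.28 over the tiles and -0.19 over all distal tiles with the minimum. Tiles at least 2 times higher in the tumor numbered 25 (0.743%; 0.661% in the background) and lower ones 445 (13.2%; 6.91% in the background). The gut value had to be high for a tile to be chosen, so nothing is read from the excess of lower ones, and tissue and library cannot be told apart. Th17 cells, which did not enter the choice, had a median of -0.04 over the tiles and -0.07 over the background, with 13.4% higher (7.85% in the background) and 11.9% lower (6.9% in the background).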

How the data were processed

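The authors aligned the reads with Cell Ranger ARC 2.0.0 to mm10, per the submitters' processing notes and the file headers, and deposited fragment files (each line a fragment, its cell barcode and its count of read pairs) and a table of cell labels. They kept cells on RNA and ATAC quality, clustered the RNA and carried the labels over. Whether doublets were removed is not stated in what was read here, and no caller was run. RNA counts are not analysed here, and 0 columns belonged to other samples.

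Fragments of labelled cells were counted once in each 500-bp tile that held an end, whatever their read pair count, and divided by the label's total on chromosomes 1 to 19, X and Y. Sums over adjoining tiles can count a fragment in each. Gene ends came from the RefSeq table of GRCm38.p6 (21887 protein-coding genes), the same assembly as mm10. Counting and ratios were tested on simulated data. Scripts ran in Python 3.11.15 (scipy 1.17.1, numba 0.67.0, pandas 2.3.3, numpy 2.4.6), and plots were drawn in matplotlib 3.10.9.

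The tiles, gene lists and markers were chosen with earlier results of these data known. Tiles were named where they lay nearest to listed genes (up to 3 per gene by gut Rorgt gdT fragments), had the most fragments (10), had the highest smaller ratio of both libraries for the γδ labels (10) or for Th17 over Mucosal Th1 and IL10+ over IL10- Treg (5 each), had the lowest tumor ratio (5) or lay beside the fold (3 on each side), and the 5 genes nearest to most tiles were named. Printed windows were selected by their overlap with tiles after the data were seen. Those other than Il1r1 and Cnr2 also had to hold AGGTCA or TGANTCA. A single ratio has an exact conditional binomial interval, and a count of 0 was set to 3 counts, while other counts below 3 were kept as read. Among 2162164 gut Rorgt gdT fragments, 15 amount to 6.94 FPM. Alternatives were another pseudocount, minimum, fold, distance, cell filter, counting and scaling. The classes of sharing, the thinning of cells, the floor medians and the search of start-site windows were added after seeing the data. The motif search planned for whole tiles was not run, as no genome sequence was used here. Results for 1 gene of the type 17 list are not reported here by name, though it stays in the counts of the lists.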

Additional observations from a re-analysis of the deposited data

Results flagged for a closer look

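Rorgt gdT was the lower of the γδ labels in the tumor at 48 of the 3365 tiles, against 7314 of all 18150 distal tiles with the minimum. At these 48 tiles the order turned round between the libraries. Of them, 39 had 15 or more tumor fragments over both γδ labels, a count without a background. The 5 of these 39 with the lowest tumor ratio are given here. The difference between libraries was not tested, the gut values had been chosen to be high, and the interval of every tumor ratio includes 0. The tile nearest Lmo4, the gene of a LIM-only cofactor (chr3:144201501-144202000), went from 16 and 5 fragments to 4 and 19, a tumor count log2 (counts and label totals, nothing added) of -1.27 (interval -3.28 to 0.32). The tile nearest Rpl14 (chr9:120601501-120602000) went from 18 and 6 to 3 and 13, at -1.14 (-3.59 to 0.73). The tile in the noncoding gene Morrbid, 205 kb from Bcl2l11, the gene of the death factor Bim (chr2:128368001-128368500), went from 19 and 7 to 5 and 16, at -0.70 (-2.50 to 0.82). The tile in Dym (chr18:75044001-75044500) went from 32 and 8 to 7 and 22, at -0.67 (-2.14 to 0.60), and had 84 Mucosal Th1 fragments in the gut and 27 in the tumor. The tile in Pik3ap1, the gene of the adaptor BCAP (chr19:41338501-41339000), went from 21 and 7 to 8 and 25, at -0.66 (-2.02 to 0.53).

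Chromosome X was outside the rule. Of its 251 distal tiles with 15 or more gut Rorgt gdT fragments, 26 (10.4%) were at least 3 times higher in Rorgt gdT than in Cytotoxic gdT cells, below the 13.2% to 24.3% of chromosomes 1 to 19. The difference was not tested, and a share of 251 tiles carries counting error.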

How the results depend on the processing

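With a pseudocount of 1 FPM, 71.6% of the tiles were at least 3 times higher in tumor Rorgt gdT cells, with a median log2 ratio of 2.20 and a tumor Th17 over Mucosal Th1 median of 0.67. A minimum of 30 fragments left 1191 tiles, with medians of 2.31 for the tumor γδ ratio, 0.79 for gut Th17 over Mucosal Th1, 0.23 and 0.14 for IL10+ over IL10- Treg in gut and tumor and -0.32 for tumor over gut, and Rorgt gdT led at 521. Without a minimum there were 22936 tiles, of which 36.1% were at least 3 times higher in the tumor (0.535% of all distal tiles), with medians of 0.97 for the γδ ratio, 0.0 for gut Th17 over Mucosal Th1, 0.11 for the same in the tumor, 0.0 for both Treg ratios and -0.71 for tumor over gut, and Rorgt gdT led at 5955. A fold of 4 gave 83.1%, 2.76, and Th17 medians of 0.90 in the gut and 0.89 in the tumor. A fold of 2 gave 5167 tiles, 53.0%, 1.69, 0.44 and 0.48. A distance of 5 kb gave 75.2% and 2.44, against 18.8% in that background. With each fragment end counted there were 5527 tiles, 70.5%, a gut Th17 median of 0.60 and 2164 led by Rorgt gdT. Leaving out cells with over 3 times their library's median of fragments, the values were 71.9%, Th17 medians of 0.62 in the gut and 0.73 in the tumor, and 0.13 for the tumor Treg ratio. Scaling to fragments near gene ends gave 75.5%, 2.46, Th17 medians of 0.76 in the gut and 0.83 in the tumor, Treg medians of 0.11 in the gut and 0.039 in the tumor, and -0.17 for tumor over gut, where all distal tiles moved to -0.08. Restriction to cells with at least 1000 fragments gave 3284 tiles, 73.5%, 2.38, Th17 medians of 0.68 in the gut and 0.77 in the tumor, Treg medians of 0.17 and 0.08, -0.29 for tumor over gut and 1389 led by Rorgt gdT. No alternative reversed one of these summaries. Of 450 values of the 90 named tiles under alternatives, 439 were labelled as stayed, 11 as moved and 0 as reversed. All 11 that moved were tiles with 0 tumor Cytotoxic gdT fragments under the larger pseudocount. Tiles labelled as stayed could shift nearly as far. With 1 FPM added, the tumor log2 ratio of the Ccl20 tile fell from 3.92 to 3.01 and counted as stayed. That of the Sox13 tile at chr1:133404001-133404500 fell from 5.61 to 4.64 and counted as moved. The size of such single-tile ratios thus depended on the pseudocount. No paired analysis was possible because each tissue has 1 library. A tile with the minimum of 15 fragments carries wide counting error, and labels with few cells, such as Th2 with 58 in the tumor, lead tiles on few fragments.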
